A study of Mus musculus with 2 samples.

Results

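The miR-148/miR-152 family was examined in small RNA libraries from the muscle wall of the mouse jejunum with and without *Dnmt1*, the maintenance DNA methyltransferase. Its members were taken by name, as every mature product of miR-148a, miR-148b and miR-152. The rule used no measured value, but the family was chosen with earlier results of these data known. This gave 6 of the 1147 entries in the miRNA table, the 3p and the 5p product of each of the 3 hairpins.

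The *Dnmt1*-WT and *Dnmt1*-KO groups each held 1 library, made from jejunal tunica muscularis at postnatal day 15 (P15) on a C57BL/6 background. Per the study's methods, *Dnmt1*-KO mice carried floxed *Dnmt1* alleles and a *Cre*-eGFP transgene driven by the promoter of *Myh11*, the smooth muscle myosin heavy chain gene, and *Dnmt1*-WT mice carried the same transgene with *Dnmt1* intact. By this design *Cre* is meant to act in smooth muscle cells only and to leave *Dnmt1* intact in the other cells of the peeled muscle layer. Neither was measured here. The methods list 4 mice per genotype, of both sexes, and do not state whether their RNA was pooled. Groups follow the genotype given for each sample. Against its own title and genotype, the WT sample has a free-text note with the mutant genotype, and the strain field lists floxed *Dnmt1* for both samples. The columns of the table are headed WT and KO as the titles are. The *Dnmt1* transcript is not measured in small RNA and gives no check here, and the levels of smooth muscle and leukocyte miRNAs in each library are given at the end.

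With 1 library per genotype, each difference is between 2 libraries, and no p-value was computed. Most of the low values, from 20 to 300, were whole read counts multiplied by a factor close to 1, so that 1 unit is about 1 read. Others, such as miR-148b-3p, were fractional on that scale. The WT library totalled 5741906 and the KO library 4754677. Intervals are 95% intervals for counting error only and do not cover the spread between animals. Because the library totals differ, ratios were also computed with equal library totals, which multiplies every KO/WT ratio by 1.21 (0.27 on the log2 scale), with equal totals after removal of miR-143-3p (by 1.13, or 0.17 on the log2 scale), and with the median ratio of entries at a mean of at least 100 set to 1 (by 1.02).

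A miRNA is cut from a hairpin precursor, which yields a product from its 5′ arm (5p) and one from its 3′ arm (3p). Usually one of them is loaded into an Argonaute protein, where bases 2 to 8, the seed, pair with sites in the 3′ untranslated regions (UTRs) of mRNAs, and the other is degraded. miRNAs with the same seed share many predicted targets and are counted as a family. The miR-148/miR-152 family is known for targeting DNA methyltransferase transcripts, *Dnmt1* among them, and *MIR148A* and *MIR152* are themselves reported to be silenced by DNA methylation in some tumours.

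The 3p products define the family, because all of them carry the same seed. They are shown from 5′ to 3′ (RefSeq, GRCm38.p6) with the seed in capitals, since the make-up and the target matches below depend on it.

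mmu-miR-148a-3p: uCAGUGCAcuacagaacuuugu

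mmu-miR-148b-3p: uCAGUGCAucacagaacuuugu

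mmu-miR-152-3p: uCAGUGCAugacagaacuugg

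Counted from the 5′ end, miR-148a-3p and miR-148b-3p differed by C9U and U10C, directly 3′ of the seed. Against miR-152-3p, which is 21 nucleotides long rather than 22, miR-148a-3p differed by C9U, U10G and U20G, and miR-148b-3p differed by C10G and U20G. The sequence that tells the 3p products apart therefore amounts to 2 or 3 bases. The number of mismatches allowed when reads were assigned is not given in the sources used here, and how far reads were shared between them was not tested.

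The 5p products are shown in the same way, because the arms of the hairpins are compared below and the 5p products do not carry the family seed.

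mmu-miR-148a-5p: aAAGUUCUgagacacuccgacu

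mmu-miR-148b-5p: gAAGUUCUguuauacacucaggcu

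mmu-miR-152-5p: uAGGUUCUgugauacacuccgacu

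The 5p seed was the same in miR-148a-5p and miR-148b-5p, and miR-152-5p had a different one. The longest run shared by miR-148a-5p and miR-152-5p was 11 nucleotides, and the runs that miR-148b-5p shared with either were 8 nucleotides long.

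The hairpins lie on different chromosomes. *Mir148a* is at chr6:51269812-51269910 on the minus strand and overlaps no other annotated gene. *Mir148b* is at chr15:103285125-103285221 on the plus strand, in an intron of *Copz1*. *Mir152* is at chr11:96850393-96850465 on the plus strand, in an intron of *Copz2*, 523 bases from the start of that gene. *Copz1* and *Copz2* encode paralogous subunits of the COPI vesicle coat, and both host genes are transcribed in the same direction as their miRNA.

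All 6 products were present in both libraries, with a mean of the 2 libraries above 100. mmu-miR-148a-3p was the leading member by a wide margin and stood at 14116 in *Dnmt1*-WT and 28004 in *Dnmt1*-KO. That is 1.98 times as high in KO (interval 1.94 to 2.02), a log2 difference of 0.99. Its rank by level moved from 41 to 30 of all entries, and its share of the library from 0.246% to 0.589%. With equal library totals the ratio was 2.40.

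The other 3p products differed less between libraries and not all in the same direction. mmu-miR-148b-3p was at 2039 in WT and 2219 in KO, a ratio of 1.09 (1.02 to 1.16). mmu-miR-152-3p was at 2031 in WT and 1464 in KO, a ratio of 0.721 (0.674 to 0.771). It was the only member below 1, and it remained below 1 with equal library totals (0.871), with equal totals without miR-143-3p (0.812) and with the median centred (0.738). In *Dnmt1*-WT, miR-148b-3p and miR-152-3p were level, at 1.0 times each other (0.944 to 1.07), whereas in *Dnmt1*-KO miR-148b-3p was 1.52 times as high (1.42 to 1.62).

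The 5p products were far less abundant than their 3p partners. mmu-miR-148a-5p was at 55.2 in WT and 249 in KO, a ratio of 4.52 with a wide interval of 3.36 to 6.17, since it rested on about 55 reads in WT. mmu-miR-148b-5p was at 267 in WT and 297 in KO, a ratio of 1.11 whose interval of 0.941 to 1.32 includes 1. mmu-miR-152-5p was at 236 in WT and 336 in KO, a ratio of 1.43 (1.20 to 1.69). All 3 were above 1, miR-152-5p opposite to its own 3p partner.

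Over the 6 products, 1 passed a 2-fold increase in KO, miR-148a-5p, and 0 passed a 2-fold decrease. Among all miRNAs averaging 10 or more (543 entries), 11.4% were at least 2-fold higher and 9.94% at least 2-fold lower, and 53.4% of those calls were higher. The split of calls moved with the scaling, to 78.5% higher with equal library totals and 71.8% with equal totals without miR-143-3p. Under each of the other 3 scalings miR-148a-3p also passed 2-fold, which made 2 of 6, while the entries at least 2-fold higher numbered 106 of 543 with equal library totals, 84 with equal totals without miR-143-3p and 64 with the median centred. The direction of every member was the same under all of these scalings.

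**Figure D1:**
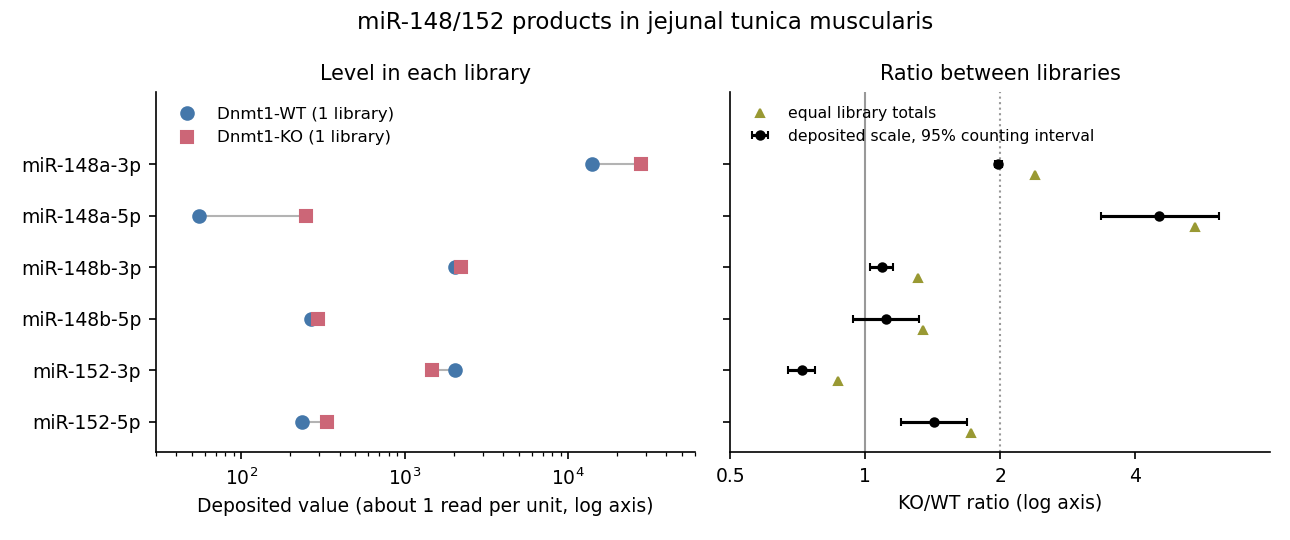
Left, deposited value (about 1 read per unit, log axis) of each miR-148/miR-152 product in the single *Dnmt1*-WT library (circles) and the single *Dnmt1*-KO library (squares). Right, KO/WT ratio (log axis) on the deposited scale with its 95% counting interval (black) and with equal library totals (triangles); miR-148a-5p lies at 4.52 and miR-152-3p, at 0.721, is the only one left of 1.

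Among abundant entries (mean of 1000 or more), the ratio of miR-148a-3p ranked 7 of 136 from the highest, that of miR-148b-3p ranked 50 and that of miR-152-3p ranked 98. On the log2 scale the 3p products ran from -0.47 to 0.99. All abundant entries ran from -1.95 (miR-143-5p) to 2.32 (miR-142a-5p), so the family took up the middle part of that range. The entries nearest in ratio to miR-148a-3p were miR-21a-5p (2.01), miR-192-5p (1.79), miR-221-3p (1.75), miR-127-3p (1.70) and miR-541-5p (1.66). Likeness here is the distance between log2 ratios of the same 2 libraries.

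The amount and the make-up of the seed family were compared next. The summed 3p products were at 18186 in *Dnmt1*-WT and 31687 in *Dnmt1*-KO, 1.74 times as high (1.71 to 1.77), or 0.317% and 0.666% of the library. miR-148a-3p gave 103% of that difference on the deposited scale and 98.1% to 102% under the other scalings. miR-148b-3p and miR-152-3p together went from 4070 to 3683, a ratio of 0.905 (0.865 to 0.946), and this sum was above 1 with equal library totals (1.09) and with equal totals without miR-143-3p (1.02). Under every scaling nearly all of the higher sum in KO was thus miR-148a-3p, although miR-148b-3p was also above its WT level.

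Shares within a library do not depend on the scaling between libraries. miR-148a-3p made up 77.6% of the 3p products in WT and 88.4% in KO. The share of miR-148b-3p went from 11.2% to 7.0% and that of miR-152-3p from 11.2% to 4.62%. miR-148a-3p was 6.92 times as high as miR-148b-3p in WT and 12.6 times in KO, a change of the balance by 1.82 (1.71 to 1.94). Its balance to miR-152-3p went from 6.95 to 19.1, a change by 2.75 (2.56 to 2.95). Each pairwise balance among the 3 products moved by more than counting error, the one between miR-148b-3p and miR-152-3p by 1.51 (1.38 to 1.65).

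**Figure D2:**
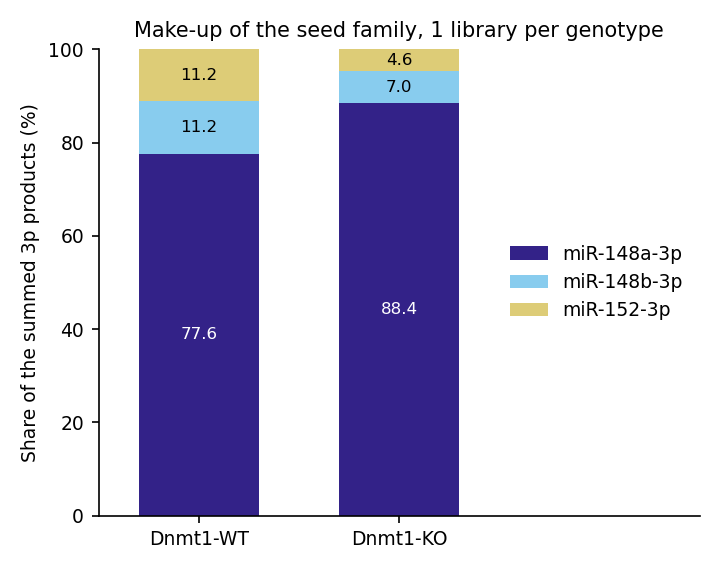
Share (%) of miR-148a-3p, miR-148b-3p and miR-152-3p in their summed value in the *Dnmt1*-WT and the *Dnmt1*-KO library, 1 library each. miR-148a-3p took 77.6% in WT and 88.4% in KO, and the share of miR-152-3p went from 11.2% to 4.62%.

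The 5p and 3p products of a hairpin come from the same precursor, so their balance was compared within each hairpin, again free of the scaling between libraries. In the miR-148a hairpin the 5p product gave 0.390% of both arms in WT (Wilson interval 0.299% to 0.506%) and 0.882% in KO (0.780% to 0.998%). There were thus 256 3p reads for each 5p read in WT and 112 in KO. The KO/WT ratio of the 5p product exceeded that of the 3p product by 1.19 on the log2 scale (0.76 to 1.64). The 3p product was the main strand in both libraries.

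The other hairpins carried a larger share of 5p. In the miR-148b hairpin the 5p share was 11.6% in WT and 11.8% in KO, and the difference between its arms was 0.03 on the log2 scale (-0.22 to 0.29). In the miR-152 hairpin the 5p share went from 10.4% to 18.7%, a difference between arms of 0.98 (0.72 to 1.25). The arms of miR-148b thus had nearly the same ratio, and those of miR-152 lay on opposite sides of 1.

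To show how far arms scatter in these libraries, the same difference was computed for all 62 hairpins with both arms at a mean of at least 100. Their median was -0.10 and their SD 0.75 on the log2 scale, and 12 of them (19.4%) had arms at least 2-fold apart, 3 with the 5p product ahead and 9 with the 3p product ahead. Of the family, 1 of 3 hairpins was at least 2-fold apart, miR-148a, and miR-152 was just inside 2-fold at 1.98. The 5p product of miR-148a reached the mean of 100 only through its KO value (55.2 in WT and 249 in KO), so its count and its place at rank 2 from the highest difference are partly set by that filter and are given as a description. miR-152 ranked 4 and miR-148b ranked 27 of 62. On the deposited scale, arms on opposite sides of 1 were found in 16 of the 62 hairpins, in 7 of them, as in miR-152, with the 5p product above and the 3p product below. Unlike the difference between arms, this count depends on the scaling between libraries, and it was not taken under the other scalings.

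The hairpins nearest to miR-148a in this measure were miR-9 (1.12), miR-152 (0.98), miR-142a (1.46), miR-340 (0.91) and miR-345 (0.82). At the other end stood miR-376b (-1.50), miR-490 (-1.60) and miR-125a (-1.69). The minor arm sets the counting error: the miR-148a value rests on about 55 reads of its 5p product in WT. In the wider set of hairpins with both arms averaging 10 or more, the SD was 0.87 and the ranks of miR-148a, miR-152 and miR-148b were 8, 18 and 75.

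**Figure D3:**
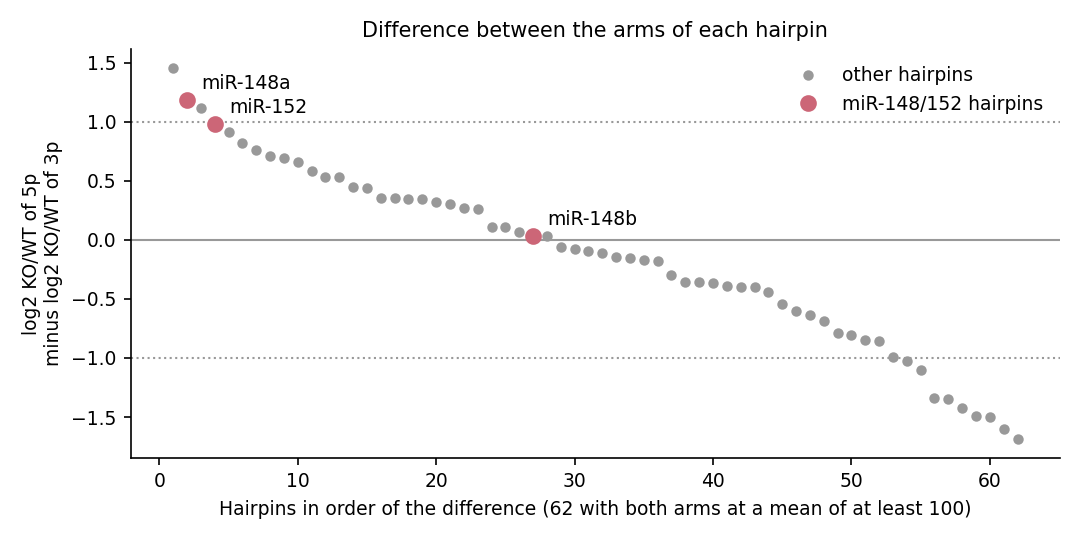
Log2 KO/WT of the 5p product minus log2 KO/WT of the 3p product for 62 hairpins with both arms at a mean of at least 100, in falling order; dotted lines mark 2-fold. miR-148a (1.19), whose 5p product averages 100 only through its KO value, and miR-152 (0.98) lie near the upper end, and miR-148b (0.03) near the middle.

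The RefSeq table used here holds 1738 mature mouse sequences, and the 3p products of the family were the only 3 of them with their seed. Another 7 had a seed offset by 1 base, in which bases 2 to 7 equal bases 3 to 8 of miR-148a-3p, so that 6 seed bases are shared. Of these, 3 had values in the miRNA table, all of the miR-130/miR-301 family. The family's mmu-miR-301b-3p, at 102.8 in WT and 78.8 in KO, was not among the sequences searched and is not in the sum below. They are shown with their own seed in capitals, to be read against AGUGCA in the family seed above.

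mmu-miR-130a-3p: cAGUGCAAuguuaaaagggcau

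mmu-miR-130b-3p: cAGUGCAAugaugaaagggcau

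mmu-miR-301a-3p: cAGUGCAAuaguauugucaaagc

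mmu-miR-130a-3p went from 22730 in WT to 14326 in KO, a ratio of 0.630 (0.617 to 0.644), mmu-miR-301a-3p from 6329 to 3867 (0.611) and mmu-miR-130b-3p from 547 to 410 (0.749). All 3 were lower in KO, and they were below 1 under each scaling.

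The summed 3p products of the miR-148/miR-152 family were 0.614 times those of the 3 offset-seed products in WT and 1.70 times in KO, a change by 2.77 (2.70 to 2.85). The order of the families by level was therefore the reverse in KO. Levels of different miRNAs within a library also depend on how well each is captured, which was not measured.

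**Figure D4:**
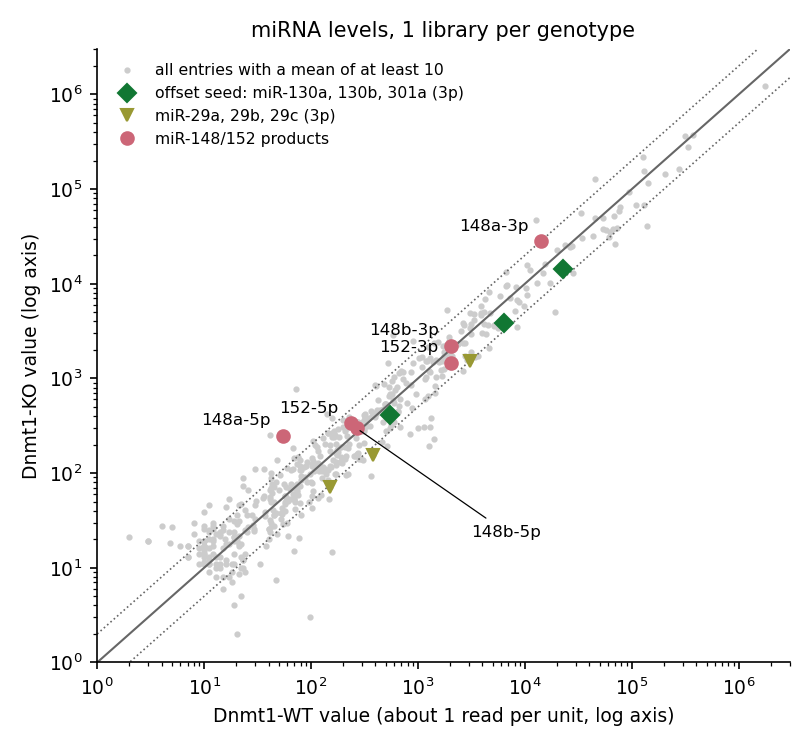
Deposited value in the *Dnmt1*-KO library against the *Dnmt1*-WT library (log axes, about 1 read per unit) for entries averaging 10 or more; 12 entries listed at 0 in 1 library are not drawn, the solid line marks equal values and dotted lines 2-fold. miR-148a-3p lies at the upper 2-fold line and miR-148a-5p above it, while the offset-seed miRNAs lie below the line of equal values and miR-29a-3p, 29b-3p and 29c-3p at or below the lower 2-fold line.

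Because the family is known for its action on DNA methyltransferase transcripts, the 3′ UTRs of *Dnmt1*, of the de novo methyltransferases *Dnmt3a* and *Dnmt3b* and their cofactor *Dnmt3l*, of the methylcytosine dioxygenases *Tet1*, *Tet2* and *Tet3*, and of *Uhrf1*, which brings DNMT1 to hemimethylated DNA, were searched on the sense strand for the reverse complement of the seed. The 7-base match was TGCACTG and the 8-base match, which adds an A opposite base 1, was TGCACTGA, a string that contains the former. Of 20979 genes, 12.6% held the former and 3.58% the latter in their longest annotated 3′ UTR. *Dnmt1* and *Uhrf1* each held 1 match, of 8 bases, shown with the match in capitals because these are the matches in the methylation genes searched.

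Dnmt1: cccagagccccacgTGCACTGA

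Uhrf1: tggttttcagagagTGCACTGA

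The *Dnmt1* match begins at base 23 of a 3′ UTR of 312 bases, and the printed window is chr9:20907491-20907512 on the minus strand (GRCm38). Of UTRs cut to that length, 1.16% held the 8-base match. The *Uhrf1* match begins at base 613 of 984, and the printed window is chr17:56323101-56323122 on the plus strand; 2.81% of UTRs cut to that length held it. No match was found in the 3′ UTRs of *Dnmt3a*, *Dnmt3b*, *Dnmt3l*, *Tet1*, *Tet2* or *Tet3*. Of UTRs cut to their lengths, 43.8%, 12.8%, 3.56%, 47.7%, 25.6% and 40.0% in turn held the 7-base match. Coding regions were not searched. A match describes the sequence and is not shown to be a site of action. In *Dnmt1*-KO smooth muscle cells the *Dnmt1* gene is recombined, and whether a transcript with this UTR remains was not measured here.

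The family was set beside 10 other miRNAs reported to target DNA methyltransferases. Of these, 2 were higher and 8 lower in KO, with a median log2 ratio of -0.53, and over all 543 entries averaging 10 or more, 280 were higher and 260 lower, with a median of 0.05. With equal library totals the median of the 10 was -0.25. In the family 5 products were higher and 1 lower, but the 5p products do not carry the family seed. Of the 3p products, which do, miR-148a-3p (1.98) and miR-148b-3p (1.09) were higher and miR-152-3p (0.721) was lower. With all 6 products of the family included, the list of 16 held 7 higher and 9 lower, with a median of -0.15. This median turned to 0.13 with equal library totals and 0.024 with equal totals without miR-143-3p. It depends on counting the 5p products, and a median with the 3p products alone was not computed.

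The miR-29 products, known for targeting *Dnmt3a* and *Dnmt3b* as well as collagen transcripts, were the 3 members of the 10 at least 2-fold lower, where 9.94% of all entries averaging 10 or more were. With equal library totals, and with equal totals without miR-143-3p, only miR-29c-3p of the list was 2-fold lower, against 29 and 33 of all 543 entries. mmu-miR-29a-3p was at 3072 in WT and 1531 in KO (ratio 0.498), mmu-miR-29b-3p at 150 and 71.8 (0.477), and mmu-miR-29c-3p at 380 and 154 (0.406). All 7 listed miR-29 entries together had a ratio of 0.485 (0.458 to 0.513), against 1.74 for the 6 products of the miR-148/miR-152 family. These sums lay on opposite sides of 1 under each scaling, although with equal library totals the miR-29 ratio was 0.586. The remaining members were miR-185-5p (0.668), miR-143-3p (0.694), miR-140-5p (0.695), miR-101a-3p (0.901), miR-101b-3p (0.905), miR-342-3p (1.20) and miR-126a-3p (1.27). The miR-101 products were above 1 with equal library totals (both 1.09) and with equal totals without miR-143-3p (1.01 and 1.02).

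**Figure D5:**
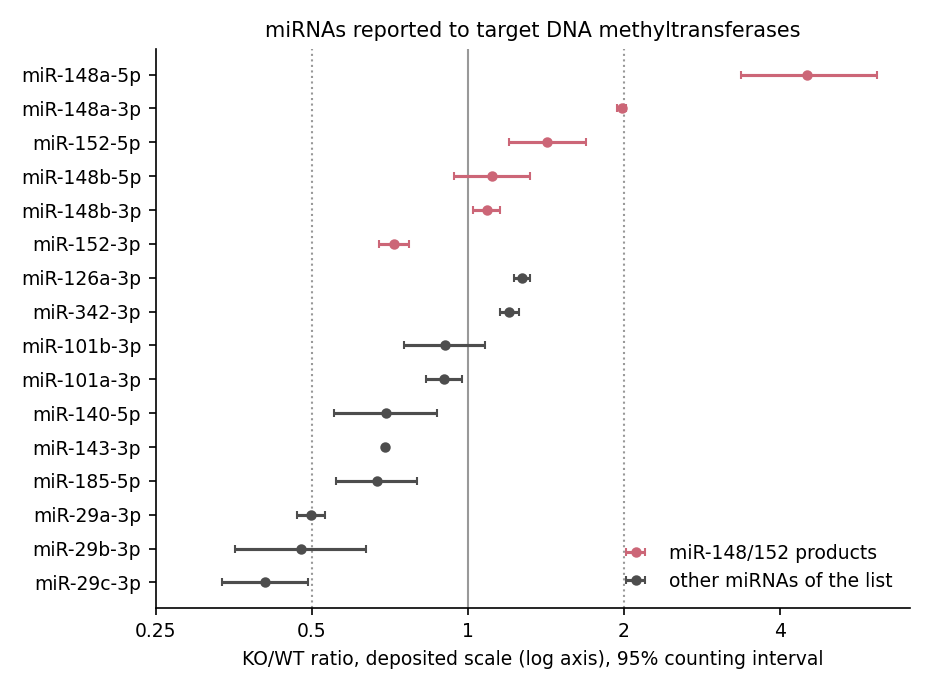
KO/WT ratio on the deposited scale (log axis) with its 95% counting interval for the 6 miR-148/miR-152 products and 10 other miRNAs reported to target DNA methyltransferases; dotted lines mark 2-fold, and 1 library was made per genotype. The miR-29 products lie lowest, from 0.406 to 0.498, and miR-148a-5p highest at 4.52.

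The libraries also differed in miRNAs that mark other cells of the tissue, and in a bulk sample fewer cells of a type and less RNA per cell cannot be told apart. Smooth muscle miRNAs were present in both libraries, which fits the labelled tissue, and 7 of 7 were lower in KO, with a sum of 2217538 in WT and 1446557 in KO. These include miR-143-3p, at 1777100 and 1232984. The listed leukocyte miRNAs were higher in 8 of 8, with sums of 16931 and 23845, led by miR-146a-5p. The 5p product of miR-342 was not listed, and it was lower in KO on the deposited scale, at 208.6 in WT and 190.5 in KO. Red cell miRNAs were higher in 4 of 4, with sums of 12745 and 47217, nearly all of it miR-486a-5p. The counts of 7 of 7, 8 of 8 and 4 of 4 were the same under every scaling. Over all 543 entries averaging 10 or more, 280 were higher and 260 lower on the deposited scale. Of the epithelial miRNAs 4 of 8 were higher, with sums of 14503 and 18129, but 8 of 8 were with equal library totals and 7 of 8 with equal totals without miR-143-3p. In addition, the liver miRNA miR-122-5p was at 72.2 and 770. No marker was listed at 0 in either library, miR-143-3p and miR-342-3p are also on the list of DNA methyltransferase miRNAs, and the part of these cells in the levels of miR-148a-3p and its relatives was not tested.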

How the data were processed

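Small RNA was isolated with a mirVana kit, prepared with Illumina TruSeq Small RNA chemistry and sequenced commercially, 1 library per genotype. The submitters' processing notes name Bowtie and mm10; mismatches, multiply matching reads and the scaling are not given in the sources used here. The values the authors deposited are other than raw counts, namely scaled counts with 1 decimal. From 20 to 300, 88.6% of 229 WT values and 91.1% of 248 KO values were whole multiples of 1.003 and 0.9972 (tolerance 0.06 reads), against medians of 8.73% and 8.87% for other steps between 0.98 and 1.02. The steps gave 5725611 and 4768097 implied reads. A listed 0 would allow 3 reads, 5.24e-05% and 6.29e-05% of the reads. The authors' own fold changes were not used.

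Ratios used no pseudocount. Their intervals were exact Clopper-Pearson intervals of the KO share of implied reads, balances used exact conditional odds ratios, and shares used Wilson intervals (SciPy 1.17.1). Reads carry no molecular identifiers, so these intervals cover counting error only. No test between genotypes was run. The procedure was tested on simulated data. Alternatives were scaling, pseudocount, the filter on the mean and denominators. Mature and hairpin sequences came from RefSeq and 3′ UTRs from GENCODE M21 (GRCm38), where 918 table entries had a RefSeq mature sequence.

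Members and lists were chosen with earlier results of these data known. Named miRNAs were the family, its seed relatives with a mean of at least 100, the DNA methyltransferase list, the leading product of the miR-29 and miR-130/miR-301 families, the 5 nearest entries by ratio (mean of at least 1000), the 5 nearest hairpins by arm difference and the 3 at each end. Marker miRNAs and matches in 3′ UTRs were described besides, and miR-301b-3p was named after its values were seen.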

Additional observations from a re-analysis of the deposited data

How the results depend on the processing

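No paired analysis was possible because each genotype has 1 library. Over 34 results, 55 values under other settings were classed as unchanged, by the counting interval or a range around the main value, 42 as moved and 2 as reversed. That class is broad for counts. For example, 84 entries at least 2-fold higher with equal totals without miR-143-3p were classed as unchanged beside the main 62. No ratio of a member, of the family sum or of the arms changed direction.

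With equal library totals the ratios were 2.40 for miR-148a-3p, 1.31 for miR-148b-3p, 1.35 for miR-148b-5p, 0.871 for miR-152-3p, 1.72 for miR-152-5p, 2.10 for the 3p sum, 0.586 for the miR-29 family and 0.761 for the miR-130/miR-301 family. With equal totals without miR-143-3p they were 2.23, 1.23, 0.812, 1.96, 0.546 and 0.710 for miR-148a-3p, miR-148b-3p, miR-152-3p, the 3p sum, miR-29 and miR-130/miR-301, and with the median centred 2.03, 1.78 and 0.645 for miR-148a-3p, the 3p sum and miR-130/miR-301. The median log2 ratio of the 10 other DNA methyltransferase miRNAs was -0.25, -0.36 and -0.49 under these scalings in turn, and -0.52 and -0.51 with pseudocounts of 1 and 10. With all 6 products of the family, 5p products included, the median reversed to 0.13 and 0.024 under the first and the second scaling. It was -0.11 with the median centred and -0.14 with a pseudocount of 10. Each scaling adds a constant, which is the cause of the reversals, and a median with the 3p products alone was not computed. The share of miR-148a-3p in the 3p difference, added after the data were seen, was 98.1%, 99.6% and 102% under the scalings in turn, and of the 10 other miRNAs 1, 1 and 2 were at least 2-fold lower. Without miR-143-3p in the library the 3p sum was 0.459% in WT and 0.900% in KO, and over all 6 products miR-148a-3p made up 75.3% and 86.0%.

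Entries at least 2-fold higher numbered 106 with equal totals, 20 at a mean of at least 100 and 306 with no filter, and those lower 29, 28 and 265, and 33 with equal totals without miR-143-3p. Hairpins with arms 2-fold apart numbered 35 at a mean of at least 10 and 1 at 1000, where fewer hairpins were included and no family hairpin was. Depth limits miR-148a-5p most, at about 55 reads in WT, and no value can be set against differences between animals.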
